A study of Homo sapiens with 7 samples.

Results

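Cholesterol is made from acetyl-CoA in the endoplasmic reticulum, first through mevalonate to isoprenoid units and then through squalene and lanosterol to the finished sterol. The transcription factor SREBP-2, encoded by SREBF2, switches the enzymes on when membrane cholesterol is low, and INSIG proteins hold it back when cholesterol is plentiful. Dividing epithelial cells, tumour cells included, need its product to build membrane.

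The genes described here are 8 named members of cholesterol synthesis and its control: HMGCS1 and IDI1 of the mevalonate arm, FDFT1, SQLE, LSS and DHCR7 of the sterol arm, and the regulators SREBF2 and INSIG1. They were chosen by symbol, and each gene is read from its brightest probe set that the array annotation assigns to that gene alone. Of the 8, 7 had such a probe set among 19775 genes in all. FDFT1, the squalene synthase gene, is not analysed here. None of the 8 encodes an uptake receptor, so genes of uptake come from a wider list.

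HSC-3, an established human oral squamous carcinoma line, was grown at 37 °C (control) or heated for 90 min at 42 °C or 44 °C and then returned to 37 °C for 0, 6 or 12 h. Each of the 7 conditions was measured on 1 whole-genome expression array, so there is no replicate, no test and no error between cultures, and the number of arrays limits the precision. In such bulk RNA, fewer cells of a kind and less RNA per cell cannot be told apart. Values are the deposited linear intensities.

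The arrays differed in level. The median probe set intensity ran from 18.7 to 32.1 and was highest at 44 °C, 0 h. With values under a floor of 21.4 left out, 20902 probe sets had a value on every array, and their median log2 shift against the control was between -0.35 (44 °C, 12 h) and 0.40 (44 °C, 0 h). A gene is therefore said to have risen or fallen only where it differed by at least 1 log2 unit (2-fold) on each of 3 scales: the deposited values, those made alike by quantile normalization, and those moved by the median shift. Shares of all genes that did so are given over the 8464 genes whose mean log2 value over the arrays was at least that of 4 times the floor, an intensity of 85.4. Where a gene or probe set is called above or below 85.4, this mean is meant. Of the 7 measured members, 6 were above this level and INSIG1 was below it. Of 4 heat shock genes checked, 4, 2 and 0 rose at 42 °C (0, 6 and 12 h) and 2, 3 and 3 at 44 °C. The shares of all genes that rose are given below. DNAJB1, a chaperone partner of HSP70, read 881 in the control, 9949, 1354 and 1299 at 42 °C, and between 6989 and 7110 on the 44 °C arrays. All 5 squamous markers with a value (KRT5, KRT14, CDH1, ITGB4 and SFN) were above the level of 85.4, and of the leukocyte and endothelial markers 0 of 5 and 0 of 6 were. Of 7 fibroblast markers only COL1A1 was, and 1 was below the floor on every array, as were 2 of the leukocyte and 4 of the endothelial markers. Summed levels ran from 34634 to 48097 for the squamous list, 63.5 to 109 for the leukocyte list and 72.5 to 128 for the endothelial list. The summed level of the fibroblast list ran from 244 in the control to 476 at 44 °C, 0 h, and COL1A1 rose at 44 °C, 6 h. The part of these cells in the results was not tested.

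The 4 stretches printed next are the 200 bases before the outermost annotated start of the regulators SREBF2 and INSIG1 and the enzymes HMGCS1 and LSS (RefSeq, GRCh38.p14). They are shown because SREBP-2 acts through such upstream stretches, together with the factors NF-Y and Sp1. Capitals mark a sterol regulatory element (TCACNCCAC), an NF-Y box (CCAAT) or an Sp1 box (GGGCGG), each on either strand. The SREBF2 stretch is chr22:41832905-41833104 (+), INSIG1 is chr7:155297678-155297877 (+), HMGCS1 is chr5:43313413-43313612 (-) and LSS is chr21:46228775-46228974 (-).
SREBF2: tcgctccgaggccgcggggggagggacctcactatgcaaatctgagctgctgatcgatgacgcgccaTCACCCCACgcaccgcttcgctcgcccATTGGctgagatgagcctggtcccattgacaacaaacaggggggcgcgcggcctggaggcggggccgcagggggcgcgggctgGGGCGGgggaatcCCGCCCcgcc
INSIG1: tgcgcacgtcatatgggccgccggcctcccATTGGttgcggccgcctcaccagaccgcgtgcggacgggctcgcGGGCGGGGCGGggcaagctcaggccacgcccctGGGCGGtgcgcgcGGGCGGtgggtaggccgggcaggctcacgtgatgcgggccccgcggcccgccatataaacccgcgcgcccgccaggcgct
HMGCS1: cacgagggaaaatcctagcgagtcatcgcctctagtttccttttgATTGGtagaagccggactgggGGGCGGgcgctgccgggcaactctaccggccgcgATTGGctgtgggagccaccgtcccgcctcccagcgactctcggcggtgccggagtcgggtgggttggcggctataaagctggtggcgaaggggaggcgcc
LSS: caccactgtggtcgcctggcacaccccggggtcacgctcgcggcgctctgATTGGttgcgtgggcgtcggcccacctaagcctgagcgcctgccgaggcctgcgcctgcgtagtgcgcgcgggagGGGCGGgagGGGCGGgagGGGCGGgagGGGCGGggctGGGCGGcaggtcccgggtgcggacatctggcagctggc

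The SREBF2 stretch holds the sterol regulatory element 133 bases before the start and an NF-Y box 106 bases before it. Over the 10 windows of the 6 members looked up (HMGCS1, IDI1, LSS, DHCR7, SREBF2 and INSIG1), 1 held the sterol element, 7 held an NF-Y box and 9 an Sp1 box. Over 35116 annotated windows of the same length the shares were 0.709%, 28.0% and 40.1%. The paired units of a heat shock element, TTCNNGAA and GAANNTTC, were in 0 of the 10 windows, against 5.24% and 4.50% of all windows. These are matches of letters and say nothing about binding in HSC-3 cells.

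HMGCS1 encodes the cytosolic HMG-CoA synthase, an early enzyme of the mevalonate arm. Its brightest probe set, 205822_s_at, read 126 in the control, 200, 232 and 148 at 42 °C (0, 6 and 12 h) and 353, 191 and 238 at 44 °C. The control was the lowest of the 7 arrays, and 44 °C, 0 h was the highest as deposited, but 44 °C, 12 h on the other scales. At 44 °C, 0 h the difference was 1.48 log2 units (2.80-fold) as deposited, 1.20 with quantile normalization and 1.08 with the median shift, so this probe set rose. At 44 °C, 12 h it was 0.92, 1.39 and 1.26, short of 1 unit as deposited.

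The other HMGCS1 probe set, 221750_at, gave the opposite reading. It read 187 in the control, 183, 282 and 196 at 42 °C, and 132, 94.5 and 153 at 44 °C. As deposited, all 3 arrays at 44 °C were below the control here, where all 3 were above it for 205822_s_at. At 44 °C, 0 h its difference was -0.49 log2 units as deposited, -0.91 with quantile normalization and -0.89 with the median shift, and at 44 °C, 6 h it was -0.98, -0.80 and -0.91. At 44 °C, 12 h it was -0.29 as deposited but 0.06 after the median shift. Between the temperatures at 6 h this probe set fell, from 282 to 94.5, while 205822_s_at read 232 and 191. No rise or fall of the HMGCS1 gene can therefore be stated from these arrays.

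The gap between the pair of HMGCS1 probe sets was compared with that of other genes. Of 3680 genes with 2 probe sets above the level of 85.4, the gap in the 44 °C, 0 h difference had a median of 0.24 log2 units. For HMGCS1 it was 1.98, and 5 genes (0.136%, HMGCS1 included) had a gap as large. At 44 °C, 6 h and 12 h the HMGCS1 gap was 1.58 and 1.21, and at 42 °C it was 0.69, 0.28 and 0.16. DHCR7 had a gap of 1.16 at 44 °C, 0 h, which 76 genes (2.07%) reached, whereas IDI1 and SQLE had gaps of 0.13 and 0.07.

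**Figure D1:**
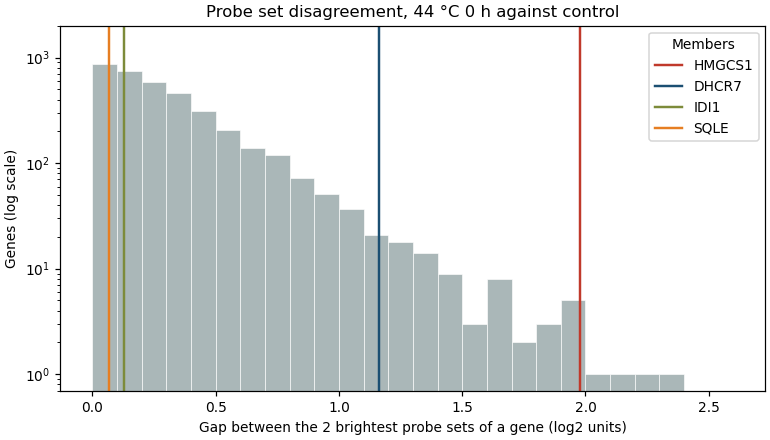
Histogram of the gap, in log2 units on the x axis, between the 2 brightest probe sets of a gene in the 44 °C, 0 h difference from the control, for 3680 genes (count on a log y axis). Coloured lines mark 4 members: HMGCS1 at 1.98 lies in the far tail, DHCR7 at 1.16, and IDI1 and SQLE lie in the bulk near 0.

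IDI1, the isopentenyl diphosphate isomerase that balances the isoprenoid building blocks, was higher at the late times after 42 °C than on any 44 °C array by its 2 brightest probe sets, but not by a dimmer one. Probe set 204615_x_at read 660 in the control, 505, 897 and 865 at 42 °C, and 543, 571 and 520 at 44 °C. The 6 h and 12 h arrays at 42 °C were the highest, and 42 °C, 0 h was the lowest as deposited, but 44 °C, 0 h on the other scales. The differences from the control at 42 °C, 6 h and 12 h were 0.44 and 0.39 log2 units as deposited and 0.20 and 0.23 after the median shift, all short of 2-fold. A second probe set, 208881_x_at, read 557 in the control, 617, 862 and 867 at 42 °C and 501, 571 and 483 at 44 °C. It differed in sign from the first at 42 °C, 0 h (0.15 log2 units above the control as deposited) and at 44 °C, 6 h (0.04 against -0.21). The suffix x marks probe sets with probes that can also bind related sequences. Probe set 242065_x_at did not share the course: it read 162 in the control, 160, 157 and 192 at 42 °C, and 171, 142 and 139 at 44 °C, so 42 °C, 6 h was below 44 °C, 0 h.

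SQLE encodes squalene epoxidase, which adds the first oxygen of the sterol route and is a rate-limiting step. Probe set 209218_at read 1090 in the control, 671, 1212 and 1139 at 42 °C, and 716, 744 and 618 at 44 °C. The 42 °C, 0 h array and all 3 arrays at 44 °C were lower than the control, and the other 2 arrays at 42 °C were slightly higher as deposited and slightly lower after the median shift (-0.09 and -0.10). The differences were -0.70 log2 units at 42 °C, 0 h and -0.61, -0.55 and -0.82 at 44 °C. After the median shift they were -0.57 and -1.01, -0.48 and -0.47, so SQLE passed 2-fold under the median shift alone and at 44 °C, 0 h only.

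The other SQLE probe sets above 85.4 followed the same course as deposited. Probe set 213562_s_at read 246 in the control, 129, 271 and 263 at 42 °C and 169, 211 and 122 at 44 °C, and 213577_at read 163, then 106, 253 and 247, then 145, 143 and 99.4. Both were below the control on the same 4 arrays as 209218_at. At 12 h the 44 °C to 42 °C difference of the 3 probe sets was -0.88, -1.11 and -1.31 log2 units as deposited, and -0.37, -0.60 and -0.80 after the median shift.

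**Figure D2:**
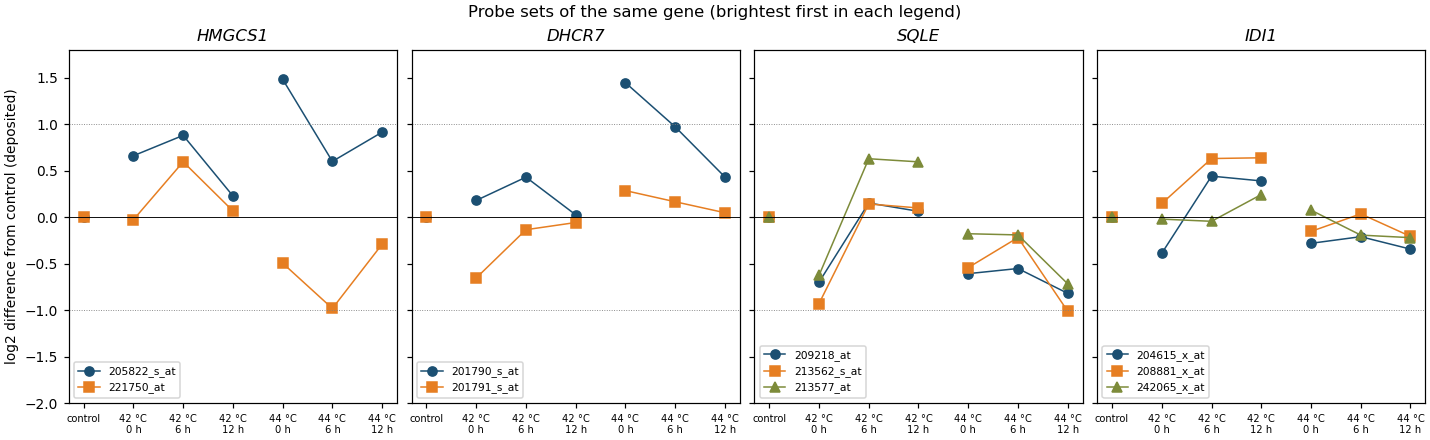
Log2 difference from the control as deposited (y axis) on the 7 arrays (x axis) for every probe set above 85.4 of HMGCS1, DHCR7, SQLE and IDI1. The 3 SQLE probe sets move in parallel, whereas the HMGCS1 probe sets part at 44 °C, 0 h, at 1.48 and -0.49; dotted lines mark 2-fold.

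LSS, lanosterol synthase, closes squalene epoxide into the first sterol ring system. Its brightest probe set, 202245_at, read 257 in the control, 254, 236 and 215 at 42 °C, and 463, 342 and 315 at 44 °C. Every 44 °C array was above every 42 °C array and the control. Of all 8464 genes, 7.59% had every 44 °C array above every 42 °C array as deposited, and 20.4% after the median shift. The LSS difference from the control at 44 °C, 0 h was 0.85 log2 units as deposited and 0.45 after the median shift, both short of 2-fold. Between temperatures at 12 h LSS differed by 0.55 as deposited, 1.17 with quantile normalization and 1.06 with the median shift, so the deposited scale alone kept it from passing. Its 2 other probe sets were dim: 211019_s_at was at or below 68.1 on every array, and 211018_at was above the floor in the control alone. Probe set 211019_s_at did not share the course: it read 63.7 in the control, 28.0, 42.5 and 20.8 at 42 °C, and 68.1, 31.7 and 26.9 at 44 °C. At 44 °C, 6 h and 12 h it was at -1.01 and -1.24 log2 units from the control as deposited, and -0.93 and -0.89 after the median shift.

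DHCR7, the reductase of the last step to cholesterol, was also higher on every 44 °C array than on the rest. The shares of all genes given for LSS apply here too. Probe set 201790_s_at read 219 in the control, 248, 295 and 223 at 42 °C, and 598, 430 and 296 at 44 °C, where the 12 h array was just above 42 °C, 6 h. It rose at 44 °C, 0 h by 1.45 log2 units (2.73-fold) as deposited, 1.15 with quantile normalization and 1.05 with the median shift. At 44 °C, 6 h the differences were 0.97, 1.11 and 1.05. The other probe set, 201791_s_at, read 279 in the control, 177, 254 and 268 at 42 °C, and 340, 313 and 288 at 44 °C. It was above the control at 44 °C too, but by 0.29, 0.17 and 0.05 log2 units, and at 44 °C, 0 h it was at -0.11 after the median shift.

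**Figure D3:**
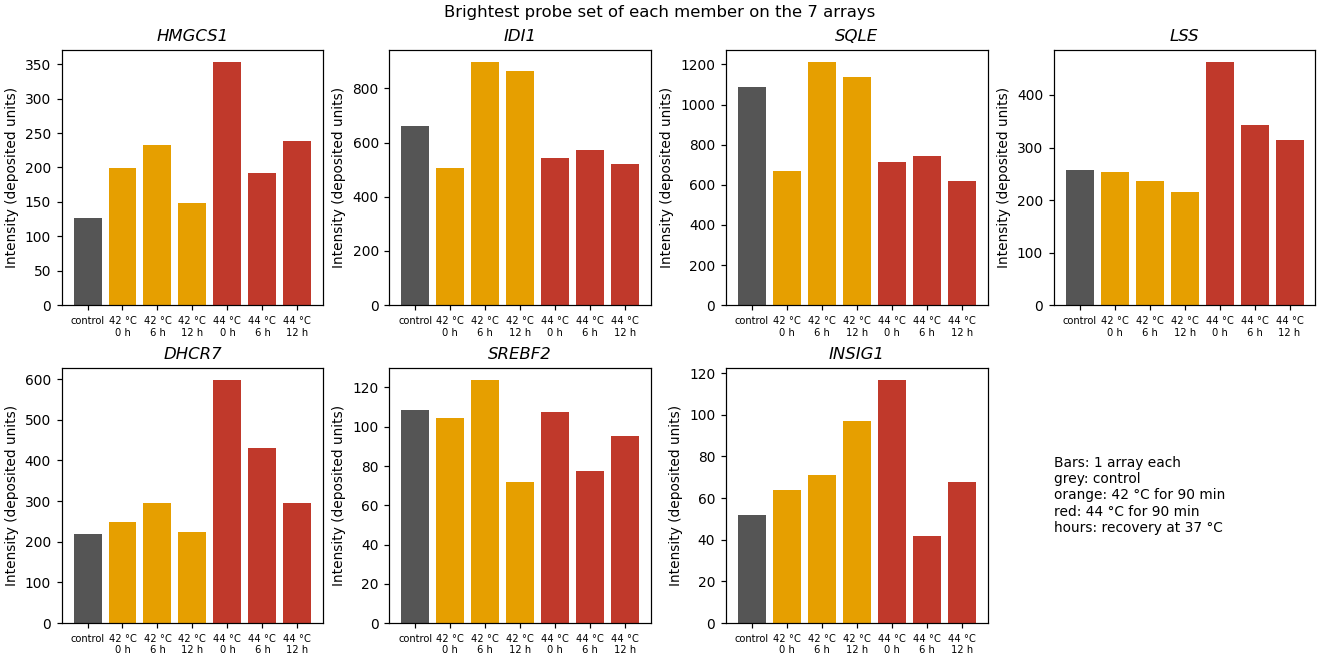
Deposited intensity (y axis, from 0) of the brightest probe set of each of the 7 measured members on the 7 arrays (x axis), 1 bar per array. HMGCS1, LSS, DHCR7 and INSIG1 are highest at 44 °C, 0 h (353, 463, 598 and 117), and SQLE and IDI1 are highest at 42 °C, 6 h (1212 and 897).

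SREBF2 encodes the SREBP-2 precursor, whose promoter carries the sterol element printed above. Its brightest probe set, 201247_at, read 108 in the control, 104, 124 and 71.7 at 42 °C, and 108, 77.6 and 95.3 at 44 °C. The lowest array was 42 °C, 12 h, at -0.60 log2 units as deposited and -0.76 after the median shift. A dimmer probe set, 201248_s_at, read 57.3 in the control and 73.9 on that array, a difference of the other sign, and was highest at 44 °C, 12 h (105). The dimmest, 242748_at, read between 21.5 and 85.1 and was also lowest at 42 °C, but at 0 h. Between the temperatures at 0 h this probe set was past 2-fold higher at 44 °C on all 3 scales (1.99 log2 units as deposited, 1.45 with the median shift), where 201247_at read 0.05 and -0.49. The 42 °C, 0 h value of 242748_at, 21.5, was near the floor of 21.4, so this difference rests on a value near the floor. The transcript level of SREBF2 does not report how much of the protein is cleaved and active.

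INSIG1, which retains the SREBP complex in the endoplasmic reticulum and is itself a sterol-regulated target, was dim. Probe set 201626_at read 51.7 in the control, 63.9, 71.1 and 97.2 at 42 °C, and 117, 41.8 and 67.6 at 44 °C. The 44 °C, 0 h array was the highest as deposited, by 1.17 log2 units over the control as deposited and 0.77 after the median shift. The other probe sets, 201625_s_at and 201627_s_at, differed by 0.11 and 0.42 as deposited on that array, but by -0.29 and 0.02 after the median shift. INSIG1 did not pass in any comparison under all 3 scalings.

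Counted over the 6 members above 85.4, HMGCS1 and DHCR7 rose at 44 °C, 0 h and 0 fell, each by its brightest probe set only. In this comparison 1.0% of all 8464 genes rose and 0.378% fell. The members and this result were known when the group was drawn up, so the share of 2 in 6 is a description. Their median difference there was 0.42 log2 units as deposited, against 0.46 over all 8464 genes, and 0.02 against 0.06 after the median shift. The median of the group did not stand apart from that of the array.

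In the other comparisons with the control 0 of 6 members rose and 0 fell. The shares of all genes that rose and fell were 1.09% and 2.32% at 42 °C, 0 h, 0.862% and 0.378% at 42 °C, 6 h, and 0.520% and 0.260% at 42 °C, 12 h. At 44 °C they were 0.780% and 2.19% at 6 h and 0.721% and 3.26% at 12 h. With such shares, 0 of 6 is near the background. The members' medians as deposited were -0.04, 0.31 and 0.04 at 42 °C, and 0.10 and 0.06 at 44 °C, 6 h and 12 h, against -0.11, 0.26, 0.22, 0.01 and -0.30 over all genes.

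Between the temperatures at the same recovery time 0 of 6 members passed in either direction. Over all genes 2.07% were higher and 0.543% lower at 44 °C at 0 h, 0.839% and 5.13% at 6 h, and 0.733% and 3.99% at 12 h. At 12 h the members' median was 0.41 log2 units as deposited against -0.53 over all genes, and 0.92 against -0.02 after the median shift. HMGCS1 (0.69 as deposited, 1.20 after the median shift), LSS, DHCR7 (0.41 and 0.92) and SREBF2 (0.41 and 0.92) were higher at 44 °C, and IDI1 and SQLE were lower. By its other probe set HMGCS1 was at -0.36 as deposited and 0.15 after the median shift, and DHCR7 at 0.11 and 0.62.

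**Figure D4:**
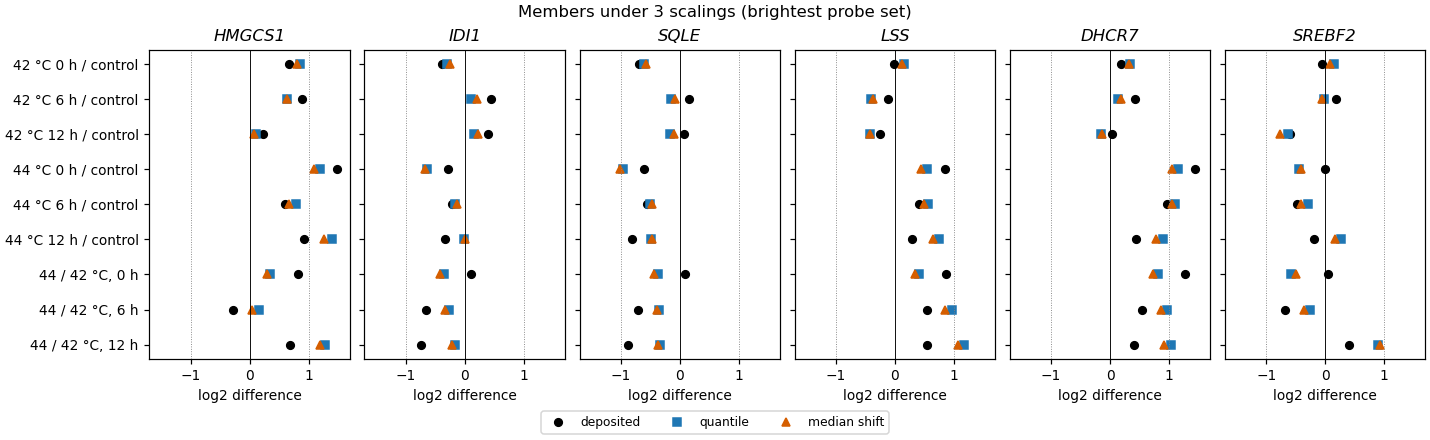
Log2 difference (x axis) of the 6 members above 85.4 in the 9 comparisons (rows), as deposited (circles), with quantile normalization (squares) and after a median shift (triangles). Only HMGCS1 and DHCR7 at 44 °C, 0 h have all 3 marks past the dotted line at 1; at 44 / 42 °C, 12 h the deposited marks lie below the scaled ones for every gene.

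The wider list of 47 cholesterol genes had 38 with a value and 29 above 85.4. The others, among them FDFT1, CYP51A1 and NR1H2, are not analysed here. In the mevalonate arm 1 of 7 genes above 85.4 rose in any comparison with the control, HMGCS1 by its brightest probe set. MVK, the mevalonate kinase, read 120 in the control and 298 at 44 °C, 0 h, a difference of 1.31 as deposited and 0.91 after the median shift. In the sterol arm 1 of 9 rose, DHCR7, and 1 fell, LBR. Over all 8464 genes 2.88% rose and 6.30% fell in at least 1 of these 6 comparisons. NSDHL, which removes methyl groups from the sterol ring, read 249 in the control, 486 at 42 °C, 6 h and 544 at 44 °C, 0 h, a difference of 0.72 log2 units on both arrays after the median shift.

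LBR is an inner nuclear membrane protein that binds lamin and also carries sterol C14 reductase activity. It read 1839 in the control, 1003, 2040 and 1965 at 42 °C, and 1194, 934 and 698 at 44 °C. As with SQLE, the 42 °C, 0 h array and all 3 arrays at 44 °C were lower than the control. It fell at 44 °C, 12 h by 1.40 log2 units as deposited and 1.05 after the median shift. LBR is represented by 1 probe set.

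Of 5 genes of SREBP control above 85.4, 0 rose and 0 fell in the 9 comparisons, where 5.45% of all 8464 genes rose and 10.7% fell in at least 1, so that 0 of 5 is near the background. INSIG2, the second INSIG gene, which is less dependent on SREBP, read 245 in the control, 140, 307 and 239 at 42 °C, and 158, 145 and 104 at 44 °C. Its difference at 44 °C, 12 h was -1.24 as deposited and -0.89 after the median shift, and at 44 °C, 0 h -0.63 and -1.03. SCAP, the escort of SREBP to the Golgi, ranged from 194 at 44 °C, 12 h to 411 at 44 °C, 0 h. SREBF1, the gene of SREBP-1, reached the floor on 3 of 7 arrays, so its level has only a bound on the rest.

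MYLIP, a ubiquitin ligase that sends lipoprotein receptors to degradation, changed more than any member. It read 136 in the control, 246, 219 and 111 at 42 °C, and 507, 376 and 440 at 44 °C. By this brightest probe set, 228098_s_at, every 44 °C array was above every other array. Of 29 cholesterol genes, 4 lay higher on every 44 °C array than on every 42 °C array as deposited. After the median shift 7 did. Over all genes the shares were 7.59% and 20.4%. MYLIP rose at 44 °C, 0 h by 1.90 log2 units (3.72-fold), at 6 h by 1.46 (2.76-fold) and at 12 h by 1.69 (3.23-fold) as deposited, and by 1.49, 1.54 and 2.04 after the median shift. At 12 h it also rose between the temperatures, from 111 to 440.

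The other 3 MYLIP probe sets above 85.4 had the same sign in each of these comparisons. At 44 °C, 0 h their differences from the control were 2.27 (220319_s_at), 0.93 (223129_x_at) and 0.49 (223130_s_at) log2 units as deposited, the last of them 0.09 after the median shift, and at 12 h they were 2.69, 1.13 and 1.39. The direction from the control at 44 °C was therefore shared by 4 probe sets, with sizes that differed between them. Probe set 220319_s_at was also past 2-fold above the control at 42 °C, 0 h and 6 h on all 3 scales. Its differences there were 2.06 and 1.52 log2 units as deposited, and 2.20 and 1.28 after the median shift. By 223130_s_at the 44 °C, 0 h array (114) was below the 42 °C arrays at 0 h (125) and 6 h (152). MYLIP was the only gene of 7 above 85.4 in the uptake and transport list that rose in the 9 comparisons, and 0 fell, beside the shares of 5.45% and 10.7% over all genes.

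STARD4, a cytosolic carrier of cholesterol, was lower on every 44 °C array than on every 42 °C array. Of 29 cholesterol genes, 2 were so as deposited and 4 after the median shift. Over all genes the shares were 9.63% and 15.7%. STARD4 read 122 in the control, 131, 176 and 138 at 42 °C, and 97.0, 67.7 and 58.4 at 44 °C. Its difference at 44 °C, 12 h was -1.07 as deposited and -0.72 after the median shift, so it did not pass. SCARB1, the HDL receptor, read 231 in the control and 453 at 44 °C, 0 h, 0.97 as deposited and 0.57 after the median shift.

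**Figure D5:**
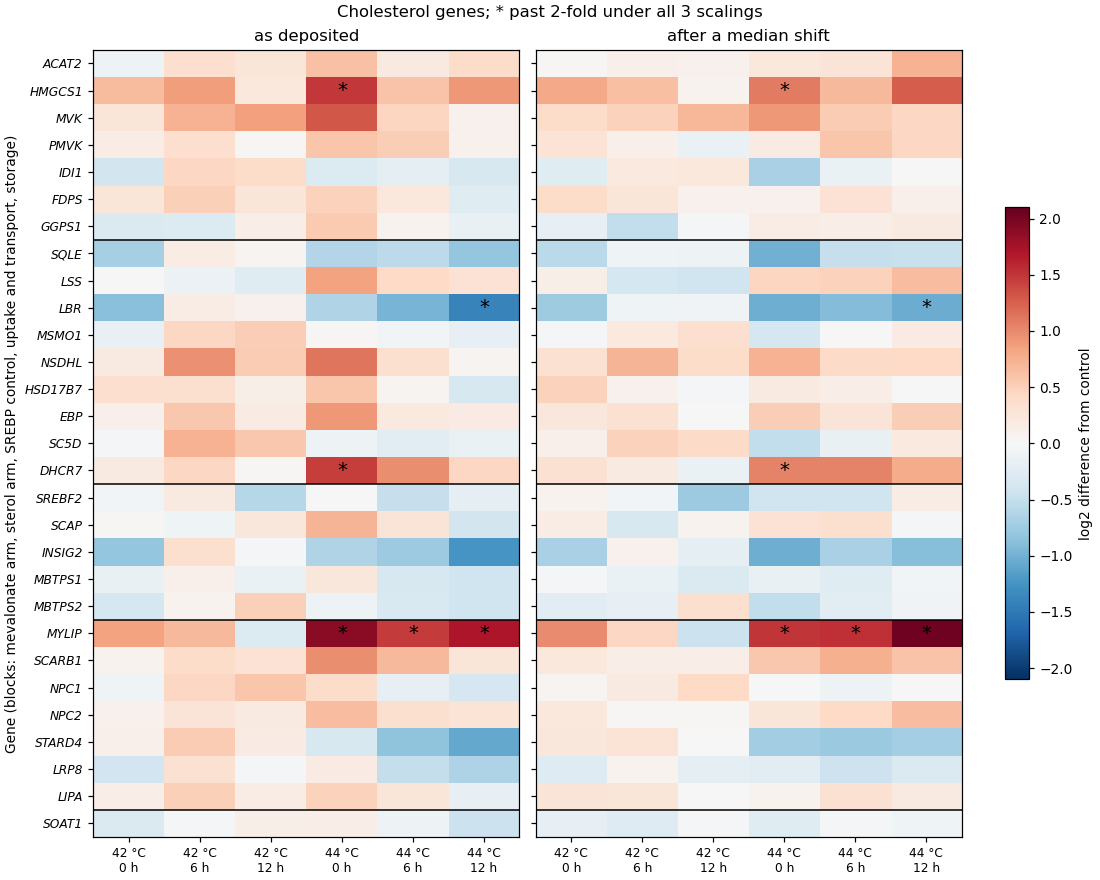
Log2 difference from the control (colour) of the 29 cholesterol genes above 85.4 (rows, in blocks by role) on the 6 heated arrays (columns), as deposited and after a median shift. Stars mark differences past 2-fold under all 3 scalings: HMGCS1, DHCR7 and MYLIP at 44 °C, 0 h, MYLIP at 44 °C, 6 h, and MYLIP and LBR at 44 °C, 12 h.

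In the efflux and storage list only SOAT1, which esterifies cholesterol, was above 85.4, and it stayed between 419 and 628. APOE, a lipoprotein component whose mean log2 value was below that level, read 127 in the control, 52.6, 36.3 and 37.6 at 42 °C, and 137, 91.8 and 132 at 44 °C by probe set 212884_x_at. It was past 2-fold lower at each time after 42 °C, though its other probe sets averaged 32.5 and 33.3, near the floor.

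Fatty acid synthesis genes, driven mainly by SREBP-1, were read as a neighbour of the pathway. Of 7 above 85.4, 1 rose at 44 °C, 0 h: FASN, fatty acid synthase, from 97.9 to 266 (2.72-fold as deposited, 1.04 log2 units after the median shift), in a comparison where 1.0% of all genes rose. All 7 were above the control on that array, with a median of 0.78 log2 units as deposited and 0.38 after the median shift, against 0.46 and 0.06 over all 8464 genes. ACACA, which makes malonyl-CoA, read 250 and 639 and missed 2-fold after the median shift (0.95). SCD, the stearoyl-CoA desaturase, rose between the temperatures at 12 h, from 46.6 to 131, in a comparison where 0.733% of all genes rose. Against the control it was at -1.05 log2 units at 42 °C, 12 h and 0.45 at 44 °C, 12 h as deposited. Its probe set 200831_s_at differed between the temperatures by 0.45 as deposited and 0.96 after the median shift, and did not pass. At 42 °C, 12 h this probe set was above the control, at 0.39 as deposited and 0.23 after the median shift, the other sign. Probe sets 211162_x_at and 211708_s_at were below the floor on both arrays.

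The genes whose course over the 7 arrays lay nearest to that of HMGCS1 probe set 205822_s_at, by Euclidean distance between centred quantile-normalized log2 values, were ORAI2 (distance 0.35), COPE (0.44), NUCB1 (0.47), TMX4 (0.49) and PLOD3 (0.50), of 8463 genes. Their correlation with it over the 7 arrays ran from 0.93 to 0.98. They were picked as nearest on these same values, so a high correlation follows from the choice and is only a description. Among cholesterol genes DHCR7 ranked highest, at 259, followed by EBP at 280, whereas SQLE ranked 7411 and LBR 8180. Correlation gave another order: EBP (0.94) and MYLIP (0.93, distance rank 2870) were within the range of the nearest genes, and DHCR7 was at 0.82. SQLE was at -0.80 and LBR at -0.90. By distance HMGCS1 by that probe set and SQLE, enzymes of 1 pathway, were far apart. The other HMGCS1 probe set, 221750_at, was not ranked. Like SQLE, it was highest at 42 °C, 6 h and below the control on every 44 °C array as deposited. The distance from SQLE is therefore a statement about 205822_s_at and not about the HMGCS1 gene.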

How the data were processed

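RNA from 7 conditions was hybridised to 1 Affymetrix Human Genome U133 Plus 2.0 array each. The values are the intensity per probe set as deposited by the authors, for 54675 probe sets. Per the labels' protocols, biotin-labelled cRNA was made from total RNA, and the summarisation algorithm is not stated there. Probe sets were named through the platform annotation (41097 with 1 gene, 1801 with several, 11777 unlisted), with symbols updated to GRCh38.p14.

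Each gene was read from its brightest single-gene probe set. Values below the pooled median (21.4) were set to it after scaling and before log2. The median shift used 20902 probe sets with no value under the floor. With 1 array per condition no test was made. Python 3.11.15, numpy 2.4.6 and pandas 2.3.3 were used.

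The members and gene lists were chosen with earlier results of these data known. Named genes were the members, INSIG2, SREBF1, SCAP, STARD4 and some that are not reported here, up to 4 changed genes per list and comparison, and the 5 genes nearest to HMGCS1. MVK, NSDHL, SCARB1, ACACA, SOAT1, APOE, EBP and the genes named as not analysed were named after their values were seen.

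Alternatives tried were each scaling alone, no floor or a higher one, the mean of all probe sets, a 1.5-fold limit, a wider set of genes for the background and, added after seeing the data, the second brightest probe set.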

Additional observations from a re-analysis of the deposited data

Results flagged for a closer look

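STARD4 was singled out because its arrays lay on opposite sides of the control array. Under every scaling its 42 °C arrays were all above the control and its 44 °C arrays all below it. The 42 °C side was narrow in places. At 42 °C, 12 h it was 0.013 log2 units by the median shift and 0.07 by quantile normalization. As deposited it was 0.10 at 42 °C, 0 h, but 0.53 at 42 °C, 6 h. The smallest difference at 44 °C was -0.33, at 0 h as deposited. STARD4 is represented by 1 probe set. The mean log2 level of the 44 °C arrays minus that of the 42 °C arrays was -1.02 as deposited, -0.91 with quantile normalization and -0.92 after the median shift. The difference was not tested, and both sides rest on the same control array. Of the 8464 genes, 146 (1.72%) showed such opposite sides, and of the 29 cholesterol genes STARD4 was the only 1.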

How the results depend on the processing

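The counts of members past 2-fold moved as follows. At 44 °C, 0 h the 2 higher members became 0 with the mean of all probe sets and 0 with the second brightest probe set, and lower members went from 0 to 1 (SQLE) with the median shift alone and at 1.5-fold. At 44 °C, 6 h the count of higher members went from 0 to 1 (DHCR7) with quantile normalization or the median shift alone and to 2 at 1.5-fold, and at 44 °C, 12 h to 1 (HMGCS1) under those 3 settings. At 1.5-fold, 1 member was higher at 42 °C, 0 h and 1 at 6 h (HMGCS1), and 1 lower at 12 h (SREBF2). Between temperatures, higher members went from 0 to 1 (DHCR7) at 0 h as deposited alone and at 1.5-fold, and at 12 h to 3 with quantile normalization alone, 2 with the median shift alone and 1 at 1.5-fold, and lower members went to 1 at 6 h (HMGCS1) with the second brightest probe set. The HMGCS1 difference at 44 °C, 0 h reversed to -0.49 log2 units with its other probe set. The cause of these shifts was not tested.

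Over all genes that reached the floor on any array, the share that rose or fell moved by over 1.5 times in these comparisons: 1.52% and 2.02% at 42 °C, 6 h, 0.991% and 1.45% at 42 °C, 12 h, 2.18% and 0.725% at 44 °C, 0 h, and, for higher genes, 1.54% at 44 °C, 6 h, 1.74% at 44 °C, 12 h, and 1.72% and 1.83% between temperatures at 6 h and 12 h. In the other probe sets of members above 85.4, the sign of the brightest was shared in 40 of 54 readings as deposited, 35 with quantile normalization and 38 after the median shift. These readings are of 6 probe sets of HMGCS1, DHCR7, SQLE and IDI1 in 9 comparisons that share arrays. LSS, SREBF2 and INSIG1 had no other probe set above 85.4. No such share over all genes is given, so the agreement cannot be ranked. Of the 164 alternatives for these counts and shares, 135 were labelled unchanged, that is, within 1.5 times or 0 in both. Most of the 135 are member counts of 0 that stayed 0, so the tally does not measure robustness. The only member count above 0, the 2 higher at 44 °C, 0 h, became 0 under both alternatives that used other probe sets. No paired analysis was possible because each condition has 1 array. INSIG1, at 41.8 to 117, is limited by its signal over the floor.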
